A study of Mus musculus with 31 samples.

Results

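The comparison described here set the distal colon of BALB/c mice that received the food additive E171 for 14 days (CRC + E171, 4 arrays) against time-matched control mice (CRC, 4 arrays). These 8 arrays were chosen by their titles from the 31 arrays of the series, which also covers 2, 7 and 21 days. Both groups had the same chemically induced model of colorectal cancer, an injection of azoxymethane (AOM, a carcinogen) before the start and dextran sodium sulphate (DSS, which inflames the colon) in the drinking water over the first days. The CRC + E171 mice were gavaged with 5 mg/kg bw/day of E171, food-grade titanium dioxide, and the CRC mice with water alone. Each group held 2 males and 2 females, young mice at the start, with 1 array per mouse and no transgene or engineered allele. Since the controls also carried AOM and DSS, the comparison is of E171 added to that treatment, and no array here shows E171 in an untreated colon.

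Each value below is the log2 of the processed signal of a 1-colour Agilent array minus the 75th percentile of that array, so that 0 is the level of a fairly bright probe and each unit is a doubling. A log2 difference is the mean of the CRC + E171 arrays minus the mean of the CRC arrays. A differentially expressed gene (DEG) was changed 1.5-fold or more, up or down, with a limma p below 0.05 before correction, and "rose" and "fell" are used only of DEG. The samples were pieces of whole tissue, so fewer cells of a type and less RNA per cell cannot be told apart.

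The colon absorbs water, salts and short-chain fatty acids, while most bile acids, fats and sugars are taken up earlier, in the small intestine, by transporters and enzymes that the distal colon makes little of. Hox genes keep a record of position along the gut, those of the highest group numbers being used at the hind end. Cells of the gut also carry enzymes that modify drugs and other foreign molecules, cytochrome P450 enzymes first and conjugating enzymes such as UDP-glucuronosyltransferases after them, and a stress response run by the factor NRF2, which switches on glutathione synthesis through antioxidant response elements in promoters.

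The promoters of 4 genes to which the results return are shown first, from 250 bases before to 50 bases after the start, as RefSeq gives them for GRCm38.p6. For Gclm (chr3:122245307-122245606, plus strand) and Sesn2 (chr4:132510407-132510706, minus strand), which were among the DEG kept under every alternative at the 1.5-fold threshold, the capitals mark the core of the antioxidant response element, TGACNNNGC on either strand. It starts at position -134 in Gclm and -36 in Sesn2, counted from the start.
Gclm: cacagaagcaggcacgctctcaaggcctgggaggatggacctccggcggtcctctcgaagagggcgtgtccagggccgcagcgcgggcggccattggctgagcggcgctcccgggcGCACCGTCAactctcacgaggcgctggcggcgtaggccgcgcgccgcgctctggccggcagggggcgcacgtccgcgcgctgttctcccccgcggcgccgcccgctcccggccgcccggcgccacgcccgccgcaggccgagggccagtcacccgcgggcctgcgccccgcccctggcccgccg
Sesn2: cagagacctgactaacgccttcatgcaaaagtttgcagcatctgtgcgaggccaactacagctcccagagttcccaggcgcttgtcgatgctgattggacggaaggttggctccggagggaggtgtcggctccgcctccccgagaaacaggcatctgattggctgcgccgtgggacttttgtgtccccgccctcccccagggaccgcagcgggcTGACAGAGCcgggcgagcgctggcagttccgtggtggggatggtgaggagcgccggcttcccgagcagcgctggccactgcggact
These letters stood in 12.4% of all 32851 promoters of this length and in 9 of 40 promoters of the NRF2 and glutathione list (22.5%). For Slc10a2 (chr8:5105238-5105537, minus strand) and Npc1l1 (chr11:6230196-6230495, minus strand), uptake transporters of bile acids and of cholesterol that rose, the capitals mark GTTAAT followed by any base and ATT, on either strand, letters like those bound by the factor HNF1. They start at position -221 in Slc10a2 and -44 in Npc1l1.
Slc10a2: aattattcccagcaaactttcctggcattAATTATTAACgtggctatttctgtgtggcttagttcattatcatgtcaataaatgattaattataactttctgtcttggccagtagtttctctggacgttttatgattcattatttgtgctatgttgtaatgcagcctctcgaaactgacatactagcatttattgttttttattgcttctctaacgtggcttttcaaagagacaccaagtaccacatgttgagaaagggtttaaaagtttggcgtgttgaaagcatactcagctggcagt
Npc1l1: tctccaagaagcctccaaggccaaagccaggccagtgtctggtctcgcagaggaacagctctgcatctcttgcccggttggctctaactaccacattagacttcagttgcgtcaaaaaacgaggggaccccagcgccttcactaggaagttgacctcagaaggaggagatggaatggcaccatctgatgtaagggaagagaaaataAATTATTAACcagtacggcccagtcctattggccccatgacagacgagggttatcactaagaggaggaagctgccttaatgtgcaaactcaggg
This motif stood in 0.399% of all promoters and in 2 of 25 promoters of the bile acid and sterol list (8%). Both motifs were picked after the promoters had been searched, and a match describes letters and not a bound site.

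Several arrays stood apart. Xist, the transcript that coats the inactive X chromosome of females, measured -0.88 and -0.70 in the CRC + E171 females and -7.85 and -8.02 in the CRC + E171 males. In the CRC group it measured -1.6 and -1.18 in the females and -7.39 in male 1, but -1.6 in male 2, which goes against the labelled sex of that array. CRC + E171 male 2 stood above the other arrays for keratins of stratified epithelium and many neutrophil genes. Krt5, a basal keratin, measured 6.58 there and between -4.63 and -2.87 on the other 7 arrays, and the median of 18 squamous epithelium genes lay 3.16 above the mean of the CRC group. On the same array the median of 24 neutrophil genes lay 3.21 above the CRC mean and that of 27 genes of absorbing colonocytes 1.78 below it, as the map of marker lists by array shows. Both CRC + E171 females were low for posterior Hox genes, as given below. The part of these differences between arrays in the results was not tested. Correlations between arrays over all genes ran from 0.965 to 0.989 within the CRC group and from 0.916 to 0.967 within CRC + E171, the lowest values being those of male 2. Genes marking cell types (Krt5, Krt14, S100a8, S100a9, Evx1, Sis, Alpi) and Xist, Ces2b, Reg3b and Reg3g were chosen after their values were seen.

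**Figure D1:**
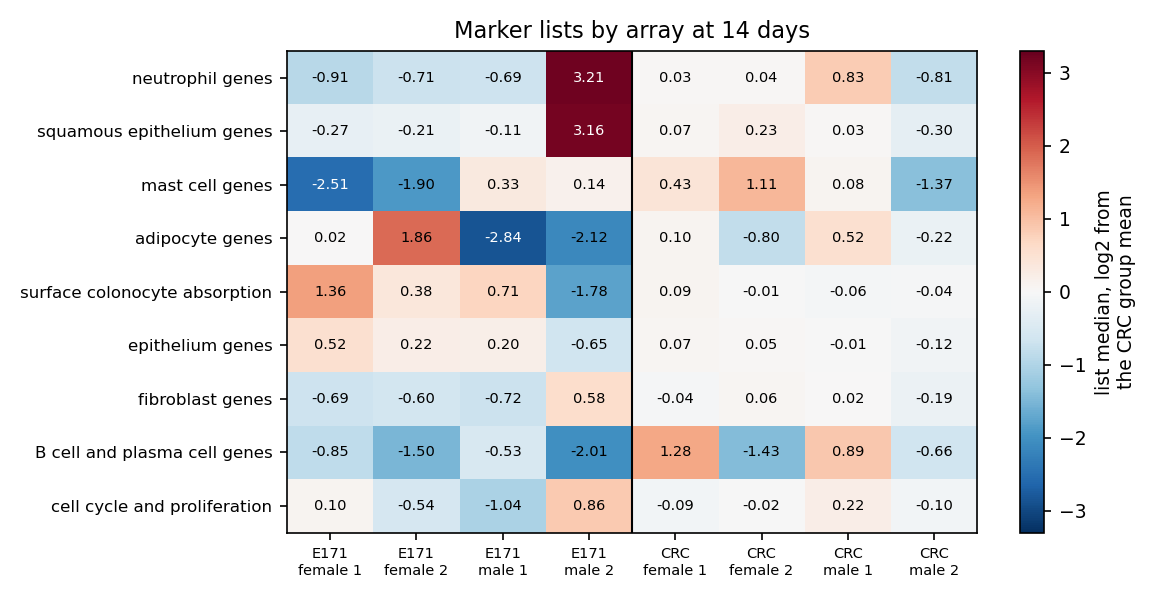
Median of each marker list on each of the 8 arrays (columns), as the log2 distance from the mean of the CRC group (colour and number). CRC + E171 male 2 stands out at 3.21 for neutrophil genes, 3.16 for squamous epithelium genes and -1.78 for surface colonocyte absorption, and the adipocyte list ranges from -2.84 to 1.86 within the CRC + E171 group.

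No slide held arrays of both groups, so slide and group cannot be told apart. Scan day 2 held 2 arrays of each group, and within it 756 of the 1969 DEG (38.4%) remained DEG. With scan day as a block 1275 (64.8%) remained so. The DEG were called on arrays that include these, so their signs within the day are not independent.

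Over the whole transcriptome similar numbers of genes rose and fell, and no gene passed correction. Of 27919 genes tested, 1969 were DEG (7.05%), 1051 of them up-regulated (3.76%) and 918 down-regulated (3.29%). No gene had an adjusted p under 0.05 (0%) in the limma fit, where the smallest adjusted p was 0.475, and 2336 genes were below 0.05 before adjustment. The median log2 difference over all genes was 0.02, with quartiles of -0.24 and 0.23. Arrays of the 2 groups did not overlap for 1865 genes (6.68%), of which 940 were DEG. The spread was wider in the exposed group, with a median SD over all genes tested of 0.450 against 0.246 in CRC. Of the DEG, 1582 had the higher SD in CRC + E171. Of the DEG, 50.6% were not well above background on all 8 arrays, against 18.8% of all genes tested. With normexp background correction the split changed, since 86.4% of the DEG were then up-regulated against 53.4% with the processed signal, and the median over all genes rose to 0.11. The share was 47.9% with quantile normalization, 45.5% with the authors' matrix, 44.6% with array weights and 34.7% without CRC + E171 female 2, so which direction was the more frequent depended on the processing and the arrays.

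The difference was larger in females than in males for 1327 of the DEG (67.4%), a share that was not counted over all genes. At least 1.5-fold the same way in both sexes changed 1356 DEG (68.9%). Tested apart, the females had 2938 DEG (10.5%) and the males 656 (2.35%), and 76 genes in females (0.272%) and 1 in males (0.00358%) had an adjusted p under 0.05. These rest on 2 arrays against 2, and the male side includes the CRC array whose Xist goes against its label. The 2 exposed females are also the arrays low for posterior Hox genes, so sex and that trait cannot be told apart.

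**Figure D2:**
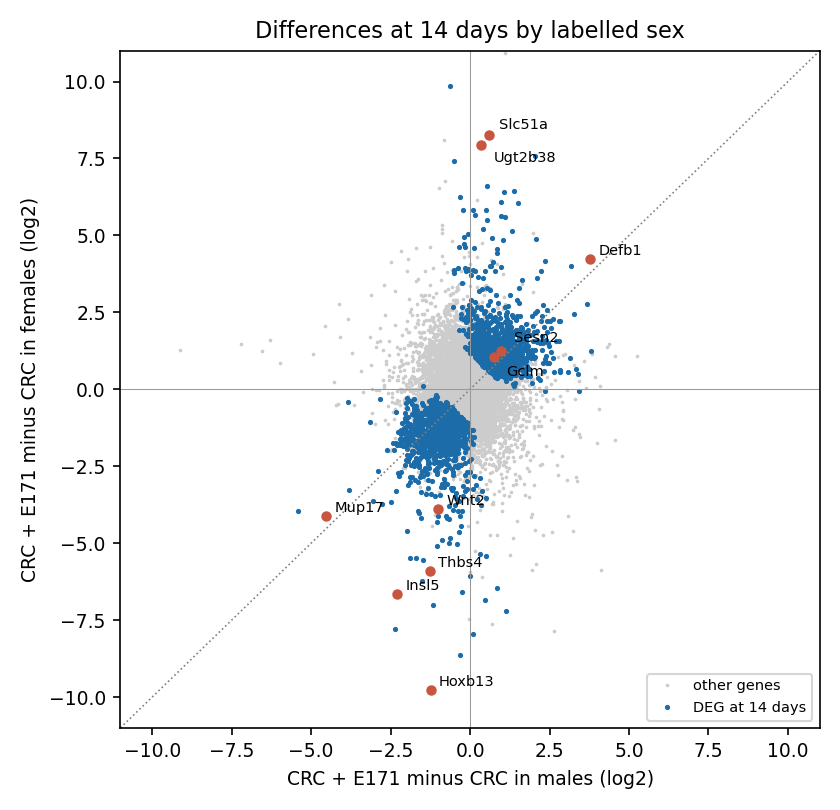
Difference between CRC + E171 and CRC in males (x axis) and in females (y axis), log2, for every gene tested, with DEG in blue and 10 named genes in red. Slc51a and Ugt2b38 lie near 8 on the female axis and near 0 on the male axis and Hoxb13 lies at -9.77 in females, while Sesn2, Gclm and Mup17 lie near the dotted line of equal change.

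Hox genes of groups 12 and 13 (Hoxb13, Hoxd13, Hoxa13 and Hoxd12) fell and Hoxc8 to Hoxc11 and Hoxd4 rose, and on the single arrays the 2 exposed females were low for the former and high for the latter, while exposed male 2 also lay above the CRC arrays for Hoxc8 to Hoxc11. Hoxb13, a marker of the hindgut, measured -1.76 and -6.83 in the CRC + E171 females and 4.36 and 4.50 in the CRC + E171 males. In the CRC arrays Hoxb13 measured 5.36, 5.57, 5.38 and 5.96, so all 4 exposed arrays lay below all 4 controls, the males by little. Its log2 difference was -5.50 ± 2.21 (SE, n = 4 per group, adjusted p = 0.518), or 45.4-fold lower. Hoxd13 measured -5.47 and -7.38 in the exposed females, 2.25 and 2.28 in the exposed males and 1.83, 2.60, 2.06 and 3.08 in CRC. The exposed males thus lay within the CRC range for Hoxd13, whose log2 difference was -4.47 ± 1.86 (SE, adjusted p = 0.533). Hoxa13 behaved alike, with -5.61 and -4.14 in the exposed females and between -0.40 and 0.86 on the other 6 arrays, as did Hoxd12, at -9.0 and -8.67 in the exposed females and between -4.34 and 0.29 elsewhere. Evx1, a homeobox gene next to the HoxA cluster, measured -8.23 and -8.54 in the exposed females and between -2.27 and -0.18 on the other 6 arrays.

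In the opposite direction, Hoxd4 measured -0.22 and 0.72 in the exposed females, -4.08 and -2.66 in the exposed males and between -3.96 and -3.22 in CRC, a log2 difference of 2.00 ± 0.82 (SE, adjusted p = 0.529). Hoxc9 was not well above background on any CRC array and was at least 2.21-fold higher in CRC + E171, where females measured -2.60 and -4.11 and males -7.70 and -5.88. Hoxc10 and Hoxc11, equally below background in all CRC arrays, were at least 1.69-fold and 1.82-fold higher, but each lost its call in 6 of the 8 sets that left out 1 array. Hoxb6 (log2 difference 2.15) and Hoxb8 (2.44) did not pass the test, although both exposed females exceeded every other array for each. Of 33 Hox genes tested, of 39 on the array, 5 rose and 6 fell (33.3%, against 7.05% of all genes), and the list's median log2 difference was 0.50. The median was -0.21 with the authors' matrix and -0.13 without both exposed females. With 1 array left out 0 to 13 rose and 2 to 6 fell. With both CRC + E171 females left out, 0 rose and 0 fell, Hoxb13 then differed by -1.14, Hoxd13 by -0.13, Hoxa13 by -0.18 and Hoxd4 by 0.19, but Hoxc9 by 1.22, Hoxc10 by 1.21 and Hoxc11 by 1.75. On male 2 Hoxc10 measured -4.95 and Hoxc11 -4.11, above every CRC array, and male 1 measured -8.17 and -8.30. Without female 1 alone Hoxb13 differed by -4.89, Hoxd13 by -3.35, Hoxa13 by -1.62 and Hoxd4 by 1.55, without female 2 alone by -3.21, -2.71, -2.12 and 1.24, and none of these values passed the test. Hoxd12 also lost its call without CRC male 2 (-3.47) or CRC female 2 (-3.66), and Hoxc9 without female 1 (2.12).

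**Figure D3:**
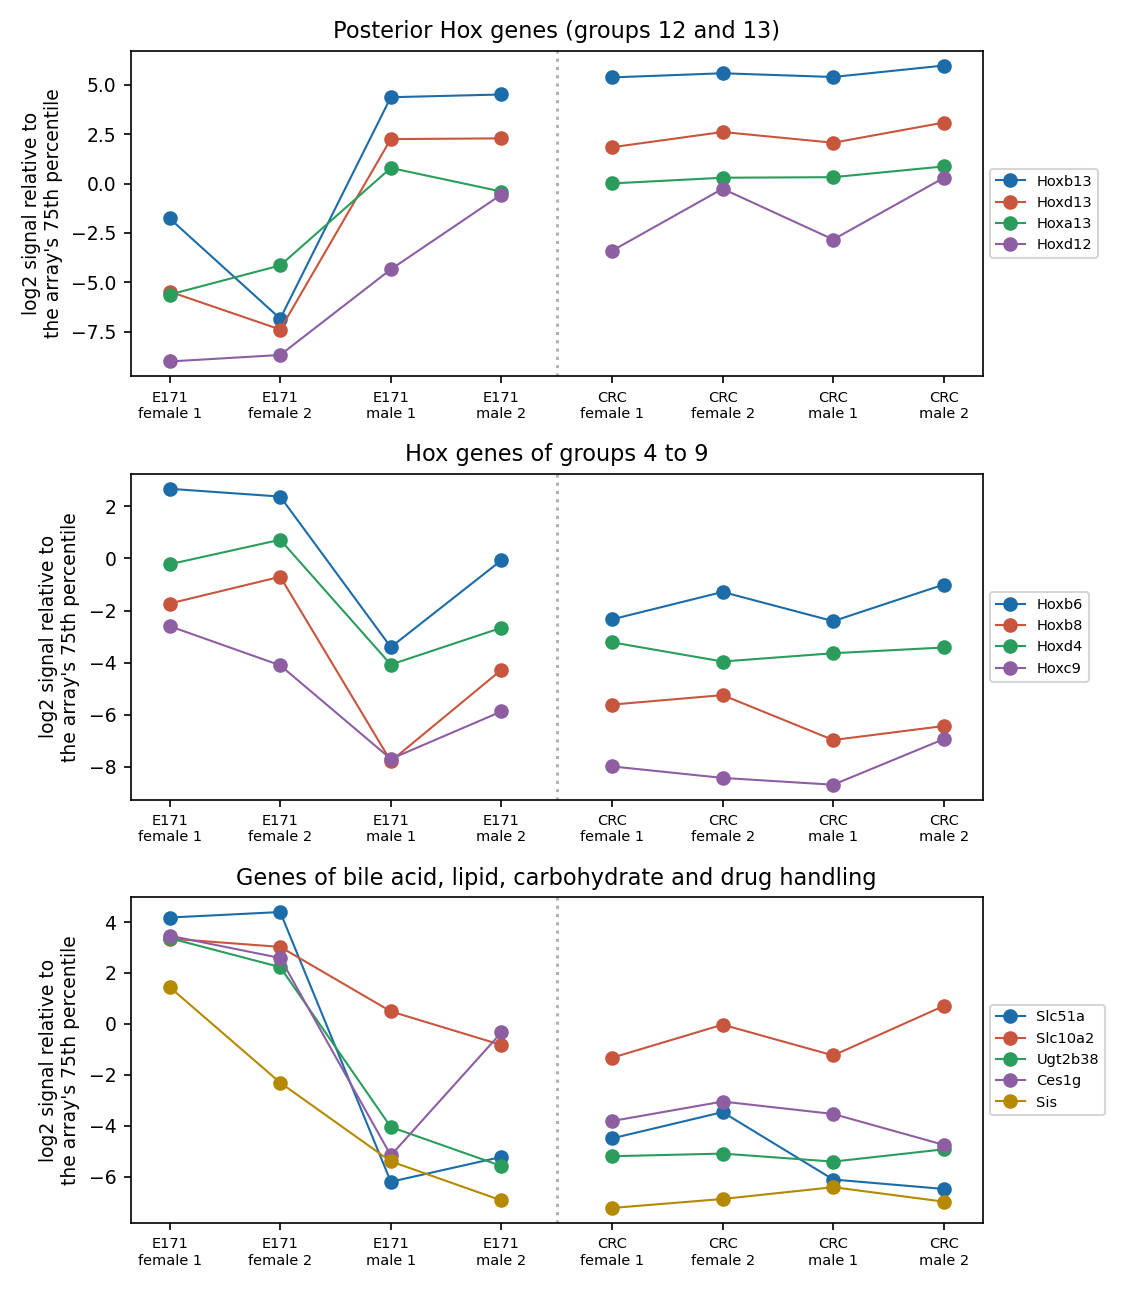
Values of named genes on each of the 8 arrays (x axis; dotted line between the groups; lines join arrays of one gene and carry no order), as log2 signal relative to the 75th percentile. Both CRC + E171 females are low for the posterior Hox genes and high for Hox genes of lower groups and for genes of uptake and drug handling, while both CRC + E171 males lie nearer the CRC arrays, Ces1g in male 2 standing above them at -0.34.

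Some genes of bile acid, sterol, fat and drug handling rose, a minority of most lists as counted below, and most of those named were high on the 2 arrays that were low for posterior Hox genes. Whether these 2 arrays hold another stretch of the gut was not tested. Slc51a, a subunit of the transporter that passes bile acids to the blood, measured 4.18 and 4.39 in the exposed females and -6.20 and -5.22 in the exposed males. In CRC it measured -4.49, -3.46, -6.11 and -6.48. The females were thus far above the 6 other arrays, among which the groups overlapped, and the log2 difference over all arrays was 4.42 ± 1.99 (SE, adjusted p = 0.559). Slc10a2, the apical bile acid uptake transporter whose promoter is printed above, measured 3.35 and 3.02 in the exposed females, 0.49 and -0.83 in the males and -1.33, -0.03, -1.24 and 0.71 in CRC (log2 difference 1.98). Fabp6, the ileal bile acid binding protein, measured 6.01 and 1.29 in the exposed females and between -1.28 and 0.52 on the other 6 arrays (log2 difference 2.14). Npc1l1, the cholesterol uptake transporter, was not well above background on any CRC array and was at least 3.83-fold higher in CRC + E171, at -0.57 and -3.53 in females and -8.11 and -4.92 in males. Its log2 difference of 3.53 became 2.30 without female 1 and 1.30 without both exposed females, where it did not pass.

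Of 29 bile acid and sterol genes tested, 7 rose and 2 fell (31.0%, against 7.05% of all genes). With 1 array left out 3 to 10 rose and 1 to 3 fell. Those that fell were Sqle, an enzyme of cholesterol synthesis (log2 difference -0.77), and Gpbar1, a bile acid receptor (-0.70), the latter with no overlap between groups. Sqle lost its call under normexp (-0.21). Gpbar1 lost it without CRC + E171 female 1 (-0.53), female 2 (-0.64) or CRC female 2 (-0.66). With both CRC + E171 females left out 1 gene of the list rose and 0 fell, Slc10a2 then differed by 0.30 and Fabp6 by 0.14, and Slc51a turned to -0.57. Fabp6 differed by 0.69 without female 1, and lost its call there, without CRC male 1, CRC female 1 or CRC female 2 (1.87 to 2.13) and under normexp. Slc51a lost its call without either female (2.79 without female 1, 2.72 without female 2) and without CRC male 1 (4.10) or CRC male 2 (3.98). Slc10a2 lost it without female 1 (1.37), female 2 (1.48), CRC male 1 (1.73) or CRC female 1 (1.70).

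Genes of fatty acid breakdown went the same way, 9 of 35 rising and 0 falling (25.7%, against 7.05% of all genes). The number rising ran from 2 to 17 with 1 array left out. Ppara, the fatty acid sensing nuclear receptor that controls many genes of this list, rose by 1.67 with 1.86 and 1.90 in the exposed females. Cyp4a10, a fatty acid hydroxylase, rose by 1.43, with all 4 exposed arrays between -4.78 and -3.56 against -6.47 to -5.13 in CRC. Without both CRC + E171 females 1 gene of the list rose, and Ppara differed by -0.18, but Cyp4a10 by 1.56. Cyp4a10 lost its call without male 2 of both groups (0.94), within scan day 2 (1.22), with scan day as a block and with array weights. Leaving out female 1 or female 2 alone ended the call of Ppara (1.06 and 1.05), as did leaving out CRC male 1, CRC female 1 or CRC female 2 (1.53 to 1.6). Sis, the sucrase-isomaltase of the small intestinal brush border, measured 1.45 and -2.31 in the exposed females and between -7.22 and -5.40 on the other 6 arrays. Alpi, the intestinal alkaline phosphatase, measured 0.76 and 0.54 in the exposed females and between -5.42 and -3.69 elsewhere. H2-T3, the thymus leukaemia antigen of small intestinal epithelium, rose by 3.31, with 1.5 and 0.52 in the exposed females and between -5.99 and -2.91 on the other arrays, and lost its call without female 1 (2.24) or female 2 (2.56).

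Among conjugating enzymes the UDP-glucuronosyltransferases were high in the exposed females. Of 22 glutathione S-transferases 1 rose (4.55%, against 7.05% DEG among all genes), and 0 of 11 sulfotransferases were DEG. Ugt2b38, a UDP-glucuronosyltransferase, measured 3.37 and 2.23 in the exposed females, -4.05 and -5.58 in the exposed males and -5.19, -5.09, -5.41 and -4.92 in CRC, a log2 difference of 4.15 ± 1.52 (SE, adjusted p = 0.48). In the females alone it was 7.94 higher (limma adjusted p = 0.0128). Ugt1a6b rose by 1.75 with no overlap between groups, from 0.66 to 1.15 in CRC, 1.36 and 1.22 in the exposed males and 4.22 and 3.58 in the exposed females. Of 10 UDP-glucuronosyltransferases tested 5 rose and 0 fell (50%), and the list's median was 1.06. Without CRC + E171 female 1 or without female 2 only 1 of them rose, and without male 2 it was 7. Genes of this family share sequence, and neighbouring members may share signal.

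Carboxylesterases, which split esters of drugs and lipids, had 3 of 14 members rising and 0 falling (21.4%, against 7.05% of all genes). Ces1g measured 3.46 and 2.59 in the exposed females, -5.16 and -0.34 in the exposed males and between -4.75 and -3.05 in CRC (log2 difference 3.92 ± 1.33, SE, adjusted p = 0.478). Ces1f and Ces1d differed by 2.95 and 2.33, and both exposed females were above all other arrays for each. In the cytochrome P450 family 10 of 70 genes rose and 2 fell (17.1%), and with 1 array left out 5 to 15 rose. Cyp2c66 (2.96) and Cyp4b1 (2.81) were high in both exposed females alone, whereas Cyp2a5 (3.23) was highest in CRC + E171 male 2, at 0.02 against -4.69, -6.16 and -5.31 on the other exposed arrays. Without male 2 the difference of Cyp2a5 was 1.88 and did not pass the test. Alcohol and aldehyde dehydrogenases had 7 of 25 members rising and 2 falling (36.0%). With 1 array left out 1 to 9 of them rose and 0 to 3 fell. Aldh1a1, which makes retinoic acid, rose by 1.96 with 5.80 and 5.46 in the exposed females and between 1.61 and 2.49 elsewhere, while Aldh1a3 (-1.65) and Adh1 (-1.46) fell.

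Left without both CRC + E171 females, the lists gave 0 rising of 10 UDP-glucuronosyltransferases, 0 of 14 carboxylesterases, 6 of 70 cytochrome P450 genes and 1 of 25 dehydrogenases. Ugt2b38 then differed by 0.34, Ces1g by 1.04, Aldh1a1 by 0.29, Cyp2c66 by -0.51 and Cyp4b1 by -0.19. None of these passed the test. Without female 1 alone Ugt2b38 differed by 2.69, Ces1f by 1.99, Cyp2c66 by 1.66, Cyp4b1 by 1.82 and Aldh1a1 by 1.35, and none was then a DEG. Without female 2 alone Ugt2b38 (3.07), Ces1f (2.18), Cyp2c66 (1.95) and Cyp4b1 (1.80) did not pass either, and Cyp2c66 lost its call without any one of the 4 CRC arrays and Cyp4b1 without CRC female 2. Adh1 lost its call in 6 of the 8 sets that left out 1 array, at values between -1.51 and -0.97, and Aldh1a3 without female 1 (-1.31) or female 2 (-1.45).

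**Figure D4:**
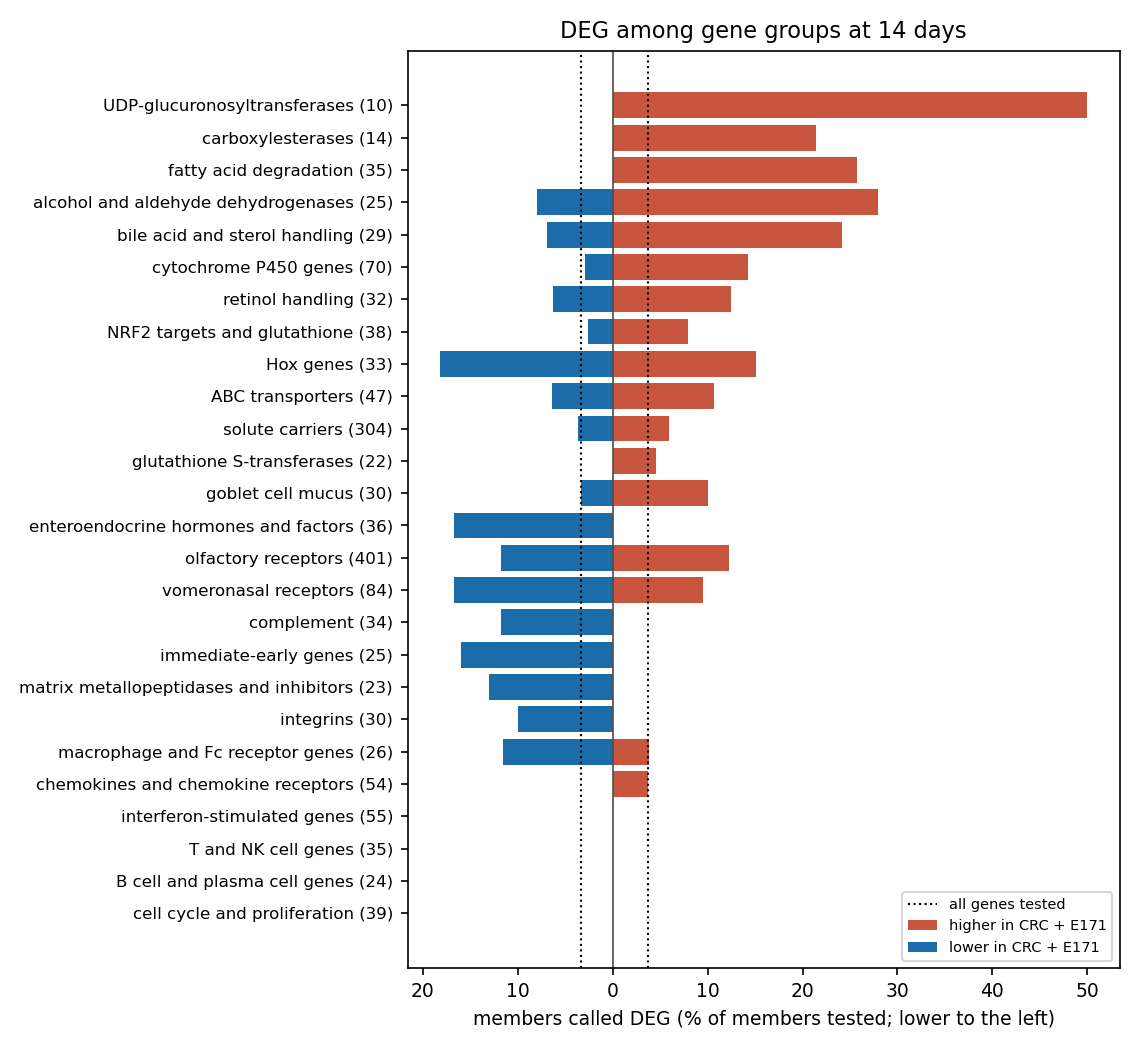
Share of the tested members of each gene group called DEG (percent, x axis), higher in CRC + E171 to the right and lower to the left, with the number tested in brackets and dotted lines at the shares over all genes tested (3.76% up, 3.29% down). Groups of drug and lipid handling lie to the right, enteroendocrine, complement, integrin and immediate-early genes to the left, and the last 4 groups have no DEG.

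Of the enteroendocrine genes, several hormones and receptors fell and none rose. Enteroendocrine cells are scattered through the epithelium and release hormones, and those of the distal colon make Insl5 and peptide YY. Insl5 measured -3.99 and -1.62 in the exposed females, 5.28 and -2.67 in the exposed males and 4.15, 3.55, 4.27 and 2.94 in CRC. The exposed females and male 2 were thus low and male 1 was above every control, and the log2 difference was -4.48 ± 1.41 (SE, adjusted p = 0.475). Pyy was likewise low in the exposed females and male 2 and high in male 1, with 1.43, 1.36, 5.28 and -0.25 in the exposed arrays and 4.42, 4.08, 4.61 and 3.6 in CRC (log2 difference -2.22). Gpr119, a lipid receptor of these cells, fell by 1.47 and Tac1, the gene of substance P, by 1.19. Of 36 members tested 0 rose and 6 fell (16.7%, against 7.05% of all genes), with a median of -0.71. Without CRC + E171 male 1, 12 fell, without female 1 or without male 2 it was 3, and the median was -0.12 without male 2. The markers Chga (-0.41) and Gcg (-0.27), chosen after their values were seen, did not pass the test. Without CRC + E171 male 2, Pyy differed by -1.49, Gpr119 by -0.83 and Tac1 by -1.01 and all lost their calls, and without both females Insl5 differed by -2.42 and lost it. Under normexp the list's median was -0.28, and Gpr119 (-0.34) and Tac1 (-0.68) lost their calls.

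Epithelial surface genes gave a mixed picture. Tff1, a trefoil peptide of the mucus layer, measured -2.83, -2.64, -3.90 and -1.63 in CRC + E171 and -4.21, -4.32, -4.12 and -3.99 in CRC. Every exposed array exceeded every control, and the log2 difference of 1.40 ± 0.40 (SE, adjusted p = 0.475) passed the test under each alternative run at the 1.5-fold threshold, though not at a log2 fold change of 1.5. Retnla, a resistin-like molecule, measured 2.05, 1.38, 0.16 and 0.39 in CRC + E171 and -2.66, -3.13 and -2.47 on 3 of the CRC arrays, but 3.33 in CRC male 2. Its log2 difference was 2.23, and 3.75 without CRC male 2, but the call was lost without either exposed female (1.88 and 2.10) or any other CRC array (1.6 to 1.81). Muc1, a membrane mucin, fell by 1.58, with -5.70 and -3.70 in the exposed females and between -1.47 and -0.61 elsewhere, and differed by 0.35 without those females. Cldn8, a tight junction claudin of the distal colon, fell by 2.46, with -2.70, 0.81, 2.77 and -1.85 in CRC + E171 and between 1.78 and 2.48 in CRC. It lost its call without female 1 (-1.64) and without male 2 (-1.92). Of 30 goblet cell and mucus genes 3 rose and 1 fell (13.3%, against 7.05% of all genes).

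Counts of DEG in several immune lists moved with single arrays. Of 20 interferons and their receptors 2 rose and 2 fell (20%), all by less than 1 on the log2 scale, and each of the 4 lost its call with 3 or 4 of the 8 arrays left out in turn and within scan day 2. Of 26 macrophage and Fc receptor genes 1 rose and 3 fell (15.4%), and the number falling was 0 without CRC + E171 female 2 or without CRC female 1, and 8 without CRC + E171 male 2. None of 55 interferon-stimulated genes, 15 MHC class II genes, 24 B cell and plasma cell genes, 35 T and NK cell genes and 39 genes of the cell cycle was a DEG, beside 7.05% of all genes. The median log2 difference was -1.14 for the B cell and plasma cell genes, but their medians on single arrays overlapped between the groups, at 1.28, -1.43, 0.89 and -0.66 in CRC and from -2.01 to -0.53 in CRC + E171. For the MHC class II genes it was -0.55, and the groups overlapped likewise. Complement had 0 of 34 genes rising and 4 falling (11.8%), a count that ran from 1 without CRC + E171 female 1 to 9 without male 2. Those falling were C4bp and Cd55, which both restrain complement, by 2.14 and 1.22, and C1s1 and C1qc, by 0.88 and 0.70. C4bp differed by -1.39 and Cd55 by -0.85 without CRC + E171 female 1, and neither passed, while C1s1 and C1qc lost their calls in 6 of the 8 sets that left out 1 array. Defb1, an epithelial defensin, was not well above background on any CRC array and was at least 3.31-fold higher in CRC + E171, at -4.27, -3.62, -8.67 and -1.39, although male 1 lay within the CRC range and the call was lost without male 2 (2.97) or female 2 (3.71). Lyz1, a lysozyme of Paneth cells, fell by 0.86 and Slpi, an inhibitor of neutrophil elastase, by 1.28. Slpi lost its call in 5 of the 8 sets that left out 1 array and differed by -0.49 without both exposed females, and Lyz1 lost it without CRC + E171 male 1 (-0.74) or CRC female 1 (-0.70). Reg3b measured 6.71 and 6.04 and Reg3g 6.20 and 4.24 in the exposed females, against -8.87 to -0.36 and -4.16 to -0.27 on the other 6 arrays, and neither passed the test.

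Of 24 neutrophil genes 0 rose and 1 fell (4.17%, against 7.05% of all genes), 15 being higher and 9 lower, with a median of 0.11. The one that fell was Ly6g, a surface marker of neutrophils, by 3.03, with -2.42 and -3.87 in the exposed females and between 2.36 and 2.96 on the other 6 arrays. S100a8, an abundant neutrophil protein, measured -5.06, -4.47 and -4.92 on the exposed arrays other than male 2, 4.36 on male 2 and between -3.15 and 1.14 in CRC. Cma1, a mast cell chymase, fell by 1.83, and the median of 12 mast cell genes lay 2.51 and 1.90 below the CRC mean in the exposed females and 0.33 and 0.14 above it in the exposed males. Cd163, a scavenger receptor of macrophages, rose by 1.34, while Timd4, a receptor for dying cells, fell by 1.18 with no overlap between groups. Il13, a type 2 cytokine, rose by 1.25, with -4.65, -3.96, -3.34 and -3.51 against -4.51, -4.82, -4.91 and -6.21. Without CRC male 2 Il13 differed by 0.88 and did not pass. Ly6g differed by -0.22 without both exposed females, Cma1 did not pass without female 1 (-1.42) or female 2 (-1.47), and Cd163 and Timd4 each lost their calls in 4 of the 8 sets that left out 1 array.

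Among stromal and signalling genes the largest fall with a steady call was that of Wnt2. Wnt2, a Wnt ligand made by stromal cells, measured -4.44 and -5.21 in the exposed females, -3.50 and -2.15 in the exposed males and -1.19, -0.69, -1.30 and -2.34 in CRC. Only male 2 reached the CRC range. The log2 difference was -2.45 ± 0.50 (SE, adjusted p = 0.475), or 5.45-fold lower, and it stayed a DEG with each array left out (between -3.00 and -1.98), without both exposed females (-1.44) and within scan day 2 (-2.44). Without CRC + E171 male 2 its adjusted p was 0.0213. Thbs4, a matrix thrombospondin, measured -2.60, -1.30, 4.31 and 1.14 in CRC + E171 and between 3.79 and 4.19 in CRC (log2 difference -3.58 ± 1.09, SE, adjusted p = 0.475), and differed by -1.25 without both exposed females. Fn1, fibronectin, fell by 1.03, Timp4, a metalloproteinase inhibitor, by 1.51 and Mmp12, macrophage elastase, by 1.18. Lef1, a transcription factor of the Wnt pathway, fell by 1.61. Without CRC + E171 female 1, Fn1 differed by -0.84, Timp4 by -0.99, Mmp12 by -0.87 and Lef1 by -1.32, and none of the 4 passed. Under normexp Mmp12 differed by -0.13 and Timp4 by -0.91, and neither passed.

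Of 30 integrins 3 fell and 0 rose (10%), and of 23 metallopeptidases and inhibitors 3 fell and 0 rose (13%), against 7.05% DEG among all genes. For the metallopeptidases the number falling ran from 0 without CRC + E171 female 1 to 5 without male 2. Immediate-early genes, which respond within minutes to growth factors and injury, had 4 of 25 members falling and 0 rising (16%). Ctgf fell by 1.34, Nr4a1 by 1.11, Fos by 1.05 and Klf2 by 0.82. Ctgf measured 0.35, 0.41, 0.85 and 2.17 in CRC + E171 and 2.21, 2.59, 2.73 and 1.6 in CRC, so that male 2 and CRC male 2 crossed over. Without both exposed females 0 immediate-early genes were DEG and Ctgf differed by -0.77, whereas 10 fell without male 2 of each group, and the count ran from 1 to 6 with 1 array left out (1 without CRC + E171 female 2 or CRC female 1, 6 without CRC male 2). Nr4a1, Fos and Klf2 lost their calls in 6, 4 and 5 of the 8 sets that left out 1 array.

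Gclm and Sesn2 rose, and for both genes the exposed males as well as the exposed females lay above every control. Gclm, the modifier subunit of the enzyme that starts glutathione synthesis, measured 3.72, 3.08, 2.71 and 3.02 in CRC + E171 and 2.24, 2.48, 2.26 and 1.98 in CRC. All exposed arrays exceeded all controls, with a log2 difference of 0.89 ± 0.22 (SE, adjusted p = 0.475), a 1.86-fold rise. Sesn2, a stress-induced regulator of growth signalling, measured 2.08, 1.13, 0.83 and 1.23 against 0.22, 0.48, 0.30 and -0.19. Its difference of 1.11 ± 0.27 (SE, adjusted p = 0.475) was a 2.16-fold rise, again with no overlap. Both remained DEG without both exposed females, at 0.63 for Gclm and 0.83 for Sesn2, and under normexp, at 0.74 and 0.87. The catalytic subunit Gclc rose by 0.84 with no overlap, but by 0.26 without both exposed females, where it did not pass, as it did not without female 1 alone (0.51).

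Nqo1, a quinone reductase and standard NRF2 target, rose by 1.20, measuring 1.69, 0.46, -0.69 and -0.19 against -0.54, -0.47, -0.82 and -1.69. It lost its call without CRC + E171 female 1 (0.74) and without CRC male 2 (0.93). Gsto1, a glutathione transferase, measured 5.22, 5.04, 4.96 and 6.35 against 4.44, 4.55, 4.44 and 4.42, a difference of 0.93 that fell short of the test without male 2 (0.61). Prdx4, a peroxiredoxin of the secretory pathway, fell by 0.80, though its probes ranged from -1.59 to -0.02. Over the list of NRF2 targets and glutathione genes 3 of 38 rose and 1 fell (10.5%, against 7.05% of all genes), and Hmox1, chosen after its value was seen, differed by 0.37. With 1 array left out 1 to 8 of the list rose and 1 to 3 fell.

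**Figure D5:**
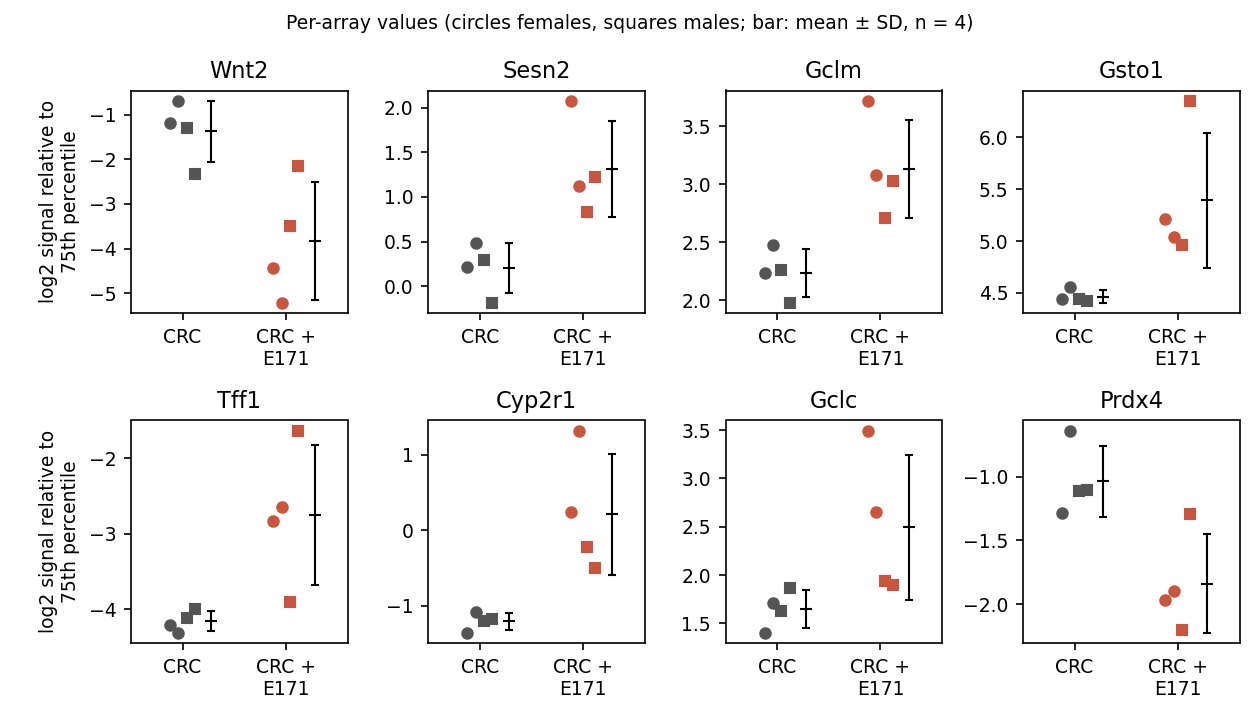
Values of 8 genes on each array (circles females, squares males; bars mean ± SD, n = 4 per group), as log2 signal relative to the 75th percentile. The groups do not overlap for Sesn2, Gclm, Gsto1, Tff1 and Cyp2r1, they are apart by a narrow margin for Gclc and Prdx4, and they overlap for Wnt2 through CRC + E171 male 2.

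Of 32 retinol handling genes 4 were called up and 2 down (18.8%, against 7.05% of all genes). Cyp2r1, the vitamin D 25-hydroxylase, measured 0.25, 1.32, -0.23 and -0.50 in CRC + E171 and between -1.36 and -1.08 in CRC (log2 difference 1.42), and did not pass without CRC + E171 female 2 (1.05). The call of Dhrs4, a retinal reductase, came from the averaging of its probes, since a spot left out on 1 array shifted the mean to 0.66 while the probes differed by 0.26 and 0.51, and with centred probes it differed by 0.33 and did not pass.

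Chemosensory receptors, faint on these arrays, split both ways. Of 1086 olfactory receptor names on the array 401 passed the filter on low values, and 49 of those rose and 47 fell (23.9%, against 7.05% of all genes), with a median of -0.05. Olfr557 measured -8.25, -6.69, -7.73 and -7.19 in CRC + E171, where no array was well above background, and -4.78, -5.15, -5.38 and -6.03 in CRC, at least 2.01-fold lower. Olfr368 was at least 2.22-fold lower, between -8.32 and -6.79 against -5.73 to -4.51. Olfr122 rose by 2.01, with -3.59, -0.97, -3.26 and -1.50 against -3.99, -4.37, -3.45 and -5.54, and Olfr477 was at least 2.35-fold higher. In the vomeronasal family 8 of 84 genes rose and 14 fell (26.2%), among them Vmn2r20 (-1.91). These directions depended on the background correction, since under normexp 94 olfactory receptors rose and 2 fell, with a median of 0.28, and 22 vomeronasal receptors rose and 0 fell. Olfr557, Olfr368 and Vmn2r20 then differed by -0.34, -0.46 and -0.52 and did not pass.

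Major urinary proteins were among the largest decreases without overlap. Mup17, a family member made mainly by the liver, measured -6.81, -5.59, -8.71 and -8.11 in CRC + E171 and -1.73, -2.42, -4.50 and -3.25 in CRC (log2 difference -4.33 ± 1.45, SE, adjusted p = 0.475). Mup1, Mup4, Mup19 and Mup20 fell by 3.55, 3.34, 3.26 and 2.53, each with no overlap between groups. Members of this family are near-identical, so their probes may read the same transcripts. The list, 6 of 9 falling (66.7%, against 3.29% of all genes), was made after the values were seen. All 5 were also DEG without both exposed females (Mup17 -5.44), but none within scan day 2 (Mup17 -3.74). Under normexp Mup17 differed by -2.05 and Mup20 by -0.63 and neither passed, and the list's median moved from -2.53 to -1.10. Albumin (Alb) fell by 2.83, at -5.93, -4.96, -2.17 and -7.01 against -2.60 to -1.80, and lost its call without male 2 (-2.16), and the median of 12 hepatocyte genes was -0.48.

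The other genes with the largest differences and no overlap showed no common role. Abca12, a lipid transporter, was not well above background in any CRC array and at least 4.12-fold higher in CRC + E171, at -1.12, -2.24, -6.50 and -6.84. Adra2a, an adrenergic receptor, measured 4.04, 2.62, -0.61 and -1.20 against -1.84 to -1.35 (log2 difference 2.80), and without both females the difference was 0.68. Igf2bp1, an RNA-binding protein, Arhgap20 and Mdh1b, a malate dehydrogenase, rose by 1.93, 1.90 and 1.85. Igf2bp1 did not pass without CRC + E171 female 1 (1.0) and Arhgap20 without female 2 (1.18). Gpr37l1, an orphan receptor, rose by 1.66. Wnk3, a kinase of ion transport, Pou1f1, a pituitary factor, and Xlr5a of the X chromosome were below background in CRC and at least 1.66-fold, 2.27-fold and 1.99-fold higher, and Olfr170 rose by 1.85. Pou1f1 (1.32) and Olfr170 (1.38) did not pass without CRC + E171 female 2.

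B3gnt5, an enzyme of glycolipid synthesis, fell by 2.89, with -4.90 and -4.44 in the exposed females, -0.12 and -1.19 in the exposed males and between 0.18 and 0.28 in CRC. Chil5, a chitinase-like protein, fell by 2.44, and Rph3a, rabphilin, by 2.33. St8sia3os, a transcript from the strand opposite to a sialyltransferase gene, measured -7.54, -5.65, -6.18 and -5.39 against -2.68, -4.07, -4.38 and -4.52, a log2 difference of -2.28 ± 0.52 (SE, adjusted p = 0.475). B3gnt5 and Chil5 differed by -0.89 and -0.73 without both exposed females, and neither passed. Under normexp Chil5 differed by -0.63 and Rph3a by -0.65, and Rph3a did not pass there or within scan day 2 (-1.82).

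Of the 1969 DEG, 544 remained DEG with each of the 8 arrays left out in turn, 292 of them up-regulated, and 361 of those also without both exposed females. Only 44 remained under every alternative run at the 1.5-fold threshold, of which 39 were up-regulated. Several of these lie under the stricter log2 fold change of 1.5. A DEG that an alternative did not test counts here as lost, and with names matched to RefSeq alone 1258 of the 1969 were tested. Under normexp, which each of the 44 had to pass, 86.4% of the DEG were up-regulated. The share up-regulated among the 44 is thus not read as a result. The 44 included Wnt2, Xlr5a, St8sia3os, Sesn2, Gclm, Tff1, Wnk3, Mdh1b, Gpr37l1 and Olfr122.

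Genes that the study's text singles out were followed by rule. Ifitm10, named for the family of interferon-induced transmembrane proteins, rose by 1.52, at -3.50, -3.44, -5.15 and -3.10 against -5.50 to -5.04. Male 1 lay inside the CRC range. Ifitm10 lost its call without both exposed females (1.19) and when no probes were filtered out. Htr1b, a serotonin receptor, fell by 1.11 and lost its call without CRC + E171 female 2 (-0.87) and without CRC female 1 (-0.90). Htr7 (-0.88), Pthlh (-1.0), Fas (0.51), Npc1 (0.49), Olfr975 (0.83), Itga5 (-1.18), Nab2 (-0.56) and Ptger4 (-0.35) did not pass the test.

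Differences between the sexes were tested directly as the effect in females minus that in males. Of all genes 1906 (6.83%) had an unadjusted p under 0.05 for this difference and 1 (0.00358%), Ces2b, an adjusted p under 0.05. Ces2b, a carboxylesterase, measured 4.56 and 4.61 in the exposed females, -1.24 in exposed male 2 and 2.33, 2.26, 2.2 and 3.01 in CRC, the spot of exposed male 1 having been left out as an outlier. The fitted difference of 6.13 (limma adjusted p = 0.00223) rests on a single exposed male, the array with squamous keratins, and on a male control group that includes the array with female-level Xist, so no sex difference is called from it. Hoxa13 (female minus male effect -4.62), Ugt2b38 (7.59), Evx1 (-8.01) and Sis (6.09) had low unadjusted values but adjusted p of 0.392.

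Set against the mean effect at 2, 7 and 21 days, the effect at 14 days differed for 2179 genes (7.8%) at an unadjusted p under 0.05 and for 0 (0%) after adjustment in limma, the smallest adjusted p being 0.0904. No control arrays are shared between days. Wnt2 differed by 0.10, -0.41 and -0.44 at 2, 7 and 21 days, and the contrast of 14 days with these days had an adjusted p = 0.406. Insl5 differed by -0.55, 0.55 and 1.03 on those days (adjusted p = 0.482). At 7 days Slc51a differed by 3.44, Slc10a2 by 2.71 and Ugt2b38 by 2.87, but Fabp6 by 0.49, Ces1g by 0.25 and Cyp4b1 by 0.15, and the median of the bile acid and sterol list was 0.35. For Slc51a, Slc10a2 and Ugt2b38 none of the contrasts with the other days passed even before adjustment. Sesn2 (0.24, 0.06 and 0.51) and Gclm (0.19, 0.04 and 0.60) had smaller differences on the other days, and the contrasts had adjusted p of 0.511 and 0.564.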

How the data were processed

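Distal colon RNA of the 31 mice was hybridised to 1-colour Agilent arrays, 1 per mouse. The deposited scanner files give, per the file headers, the processed signal intensity that Feature Extraction 10.7.3.1 makes by subtracting background, without normalization between arrays. The authors also deposited a matrix of log2 values after their own normalization, whose method is not given in the sources used here, and it served as an alternative. Spots flagged as outliers and control spots were left out. Dim probes were dropped, so that 42787 of 56605 probes remained, each of which had in at least 1 of the 8 groups 60% or more of its spots unflagged and well above background, with a group mean of 4 or more on the log2 scale. Values were log2 processed signal minus the array's 75th percentile, averaged over the probes of a gene name (27919 names). A spot left out can shift this mean where probes differ in brightness, which could touch 50 genes, 4 of them DEG. Differences were tested with limma 3.58.1 in R 4.3.3 over all 31 arrays in 8 groups, with no covariate and Benjamini-Hochberg adjustment, and the sex difference over 16 groups. The script was tested on simulated data. The methods imply 1 mouse per array, but the labels do not say so, and p-values measure only the spread between these arrays. A gene not well above background on any array of a group has only a bound, written "at least", taken against the dimmest signal well above background or the gene's own. The number of arrays, 4 a group, limits the precision. Percentages beside a list give the share of its tested members that were DEG. Named genes were the 12 largest increases and 12 largest decreases among DEG without overlap, with a usable symbol and well above background on all arrays of a group, up to 4 DEG per direction of each list by size (for lists without DEG, the 2 brightest members), the 3 usable symbols with the smallest p-values and 14 genes of the study's text. Others are said to be chosen after their values were seen. Some named genes are not reported here. The comparison, its gene lists and its named genes were chosen with earlier results of these data known. Alternatives covered normalization, background, filters, probe choice, blocks, weights and arrays left out. Those leaving out both CRC + E171 females, leaving out male 2 of both groups, using scan day 2 alone and centring probes before averaging were added after seeing the data. Promoters came from RefSeq tables of GRCm38.p6, matched by symbol.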

Additional observations from a re-analysis of the deposited data

Results flagged for a closer look

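In 14 of 257 groups of 4 arrays that were tested, 1 array lay far from the other 3. That share is near the 1 in 20 that chance gives, so the values that follow are listed without being read as a result. All 6 of the outlying values in the CRC group were of male 2, the array whose Xist goes against its labelled sex. As log2 levels relative to the 75th percentile, they were Cyp4x1 at -2.636, Ppara at -0.6507, Sqle at -1.889, Retnla at 3.332, Htr7 at -3.903 and Ces2b at 3.013. In CRC + E171, 5 of 8 were of male 2, namely the median of the neutrophil genes at 3.209 and of the squamous epithelium genes at 3.159 on the log2 scale above the CRC mean, and the levels of Aldh1a3 at -2.613, Fn1 at 1.881 and Nab2 at 0.9977. The other 3 were of female 2, with Olfr170 at -2.784, Pou1f1 at -3.501 and St6galnac1, a sialyltransferase of mucins, at 0.3544.

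For Ces2b the fitted female minus male effect was 6.134 (limma adjusted p = 0.00223). It rests on 1 exposed male array and is not taken as a sex difference.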

How the results depend on the processing

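The 1969 DEG became 488 at a log2 fold change of 1.5, 1260 with names matched to RefSeq alone (fewer genes tested), 3753 with array weights, 988 without both CRC + E171 females and 2963 without male 2 of each group, and ran from 1490 (without CRC + E171 female 1) to 3000 (without CRC + E171 male 2) with 1 array left out. Adjusted calls, 0 in the fit reported, were 4 with array weights, 13 without male 2 of each group and 0 to 4 with 1 array left out (4 without CRC + E171 male 2, Wnt2 among them, and 2 without CRC + E171 female 2). The sex difference, 1 gene, became 0 with the authors' matrix and with only the 8 arrays, 2 with scan day as a block, 5 without male 2 of each group, and 1 to 666 with 1 array left out (666 without CRC + E171 male 1, which leaves male 2 as the only exposed male). The contrast with other days, 0 genes, became 4 without male 2 of each group and was 0 with any 1 array left out. Without both CRC + E171 females 1935 of the 1969 DEG had the same sign, and 8 of the named genes, DEG or not, changed sign, Slc51a to -0.573, Cyp2c66 to -0.514, Cyp4b1 to -0.191, Ppara to -0.184, Tmigd1 to -0.155, Muc1 to 0.348, Pthlh to 0.145 and Il1rn to 0.208. The cause was not tested in any of these. Of 112 DEG among the named genes, 10 remained DEG in every setting at the 1.5-fold threshold, 39 with any 1 array left out, 62 without CRC + E171 female 1, 62 without female 2, 31 without both, and 80 under normexp, where all 112 had the same sign. Under normexp 86.4% of 2053 DEG were up-regulated, against 53.4% of 1969. Centring each probe before averaging gave 1970 DEG, 1966 of them shared, and Dhrs4 alone of the named DEG lost its call. A fit with a replicate block gave 2446 DEG, 1931 of them shared with the 1969, but same-numbered arrays did not deviate together (correlations from -0.153 to 0.122), so the numbers are not taken to pair mice. The sex difference was not run without the females, within scan day 2 or with sex as a covariate, nor the contrast with other days on the 8 arrays. Dim signal limits the values, since 50.6% of the DEG were not well above background on all 8 arrays.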
